A study of Mus musculus with 2 samples.

Results

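The genes of pyruvate oxidation and the tricarboxylic acid (TCA) cycle were described in the liver of 1 mouse: 31 genes of 43346 Ensembl genes in the deposited gene tables, with 130 annotated transcripts. They were taken by name, as the enzymes of the cycle, the subunits of the pyruvate dehydrogenase complex, its kinases and phosphatases, and the mitochondrial pyruvate carriers. All 31 were found in both libraries. The animal was a female and 10 weeks old, of the inbred strain C57BL/6J, and the labels name no allele or treatment. RNA selected for polyA tails was sequenced as 2 technical libraries of this animal, called library 2 and library 1 after their technical replicate numbers, and library 2 was added after the study's original publication. The gene tables hold 19525500 expected counts for library 2 and 23309905 for library 1. Every SD is over these 2 libraries (n = 2) and covers technical spread only, since there is no second animal.

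Pyruvate from glycolysis, lactate and alanine enters the mitochondrion through a carrier made of Mpc1 and Mpc2. The pyruvate dehydrogenase complex turns it into acetyl-CoA, kinases switch the complex off by phosphorylation, and phosphatases switch it back on. Citrate synthase joins acetyl-CoA to oxaloacetate, and the cycle then returns to oxaloacetate through isocitrate, 2-oxoglutarate, succinyl-CoA, succinate, fumarate and malate, passing electrons to the respiratory chain. In liver the same enzymes also supply intermediates for gluconeogenesis, fatty acid synthesis and amino acid breakdown.

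The transcripts of these genes were abundant. Their TPM, the deposited length-normalised abundance, summed to 3726 in library 2 and 2551 in library 1 (mean 3138 ± 831, SD). As shares of all TPM these are 0.373% for library 2 and 0.255% for library 1. Of the TPM of library 2, 25.3% fell to mitochondrially encoded transcripts and their 9 nuclear copies and 73.7% to nuclear protein-coding genes, and of that of library 1, 61.8% and 37.6%. Within nuclear protein-coding TPM alone the order turned round, with 0.505% in library 2 and 0.679% in library 1. A TPM of at least 1 was reached by 29 of the 31 genes in library 2 and 30 in library 1, and a TPM of at least 100 by 14 in library 2 and 8 in library 1. The median of the 31 was 92.1 TPM in library 2 and 41.2 in library 1. Among nuclear protein-coding genes ranked by TPM, 14 of the 31 stood in the first 1000 in library 2 and 12 in library 1.

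**Figure D1:**
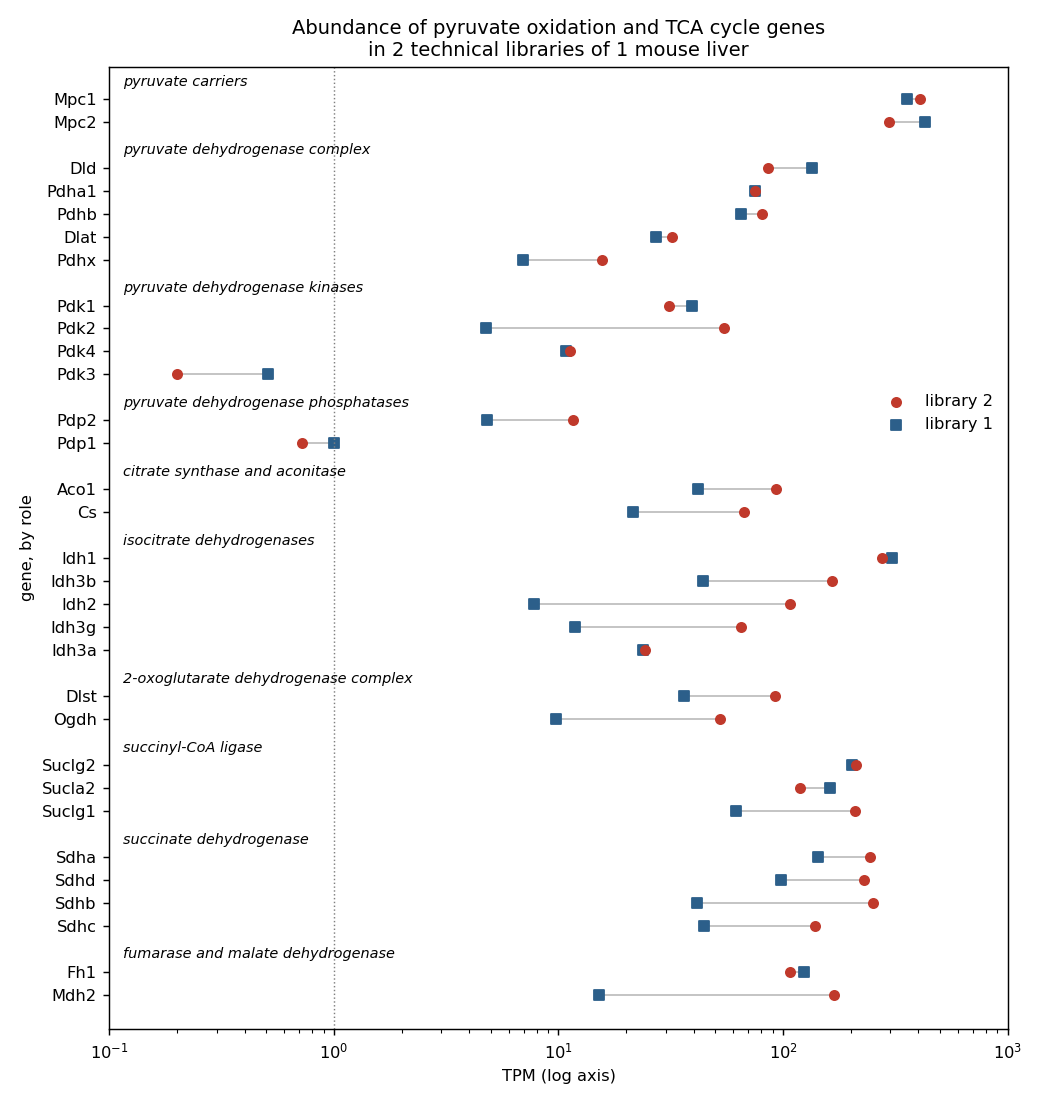
TPM of the 31 genes on a log axis, grouped by role, with a circle for library 2, a square for library 1 and a dotted line at 1 TPM. Both carriers and Idh1 lay near the top in both libraries, Pdk3 and Pdp1 at the bottom, and the widest gaps were those of Idh2, Pdk2 and Mdh2.

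The 2 libraries differed in many of these genes, in both directions. Counts of library 2 were set against those of library 1 after TMM scaling, with an exact binomial test per gene over 12728 genes and Benjamini-Hochberg adjustment, and genes with both an adjusted p under 0.05 and at least a doubling or halving (log2 fold of 1 or more, or of −1 or less) are named as called. Since each side is a single library, this sets 2 libraries against each other and not conditions. Called genes made up 13 of the 31 (41.9%), while 56.5% of all tested genes were called. Of the 13, 8 were higher in library 2 (Idh2, Mdh2, Pdk2, Idh3g, Sdhc, Sdhb, Ogdh and Idh3b), against a background of 32.7%, and 5 were lower (Pdk3, Pdp1, Dld, Sucla2 and Idh1), against a background of 23.8%. The remaining 18 were not called, which does not show that they were equal. The median log2 fold of the 31 was 0.17 and that of all tested genes 0.042, and the median size of the log2 fold was 0.86 for the 31 and 1.15 for all tested genes. The division into higher and lower depends on scaling. By total counts, which shifts every log2 fold up by 0.58, 11 of the 31 were called higher and 1 lower. Of all 12728 tested genes, whose median log2 fold was then 0.62, 5328 were called higher and 953 lower. Thus 84.8% of those calls were higher. As ratios of deposited TPM, 15 of the 31 were called higher and 1 lower. Of the 12728 genes, 5901 were then called higher and 336 lower, so that 94.6% of the calls were higher. Under both of these scalings the 1 lower gene was Pdk3, and Dld, Sucla2, Idh1 and Pdp1 kept a negative log2 fold but lost the call, with values of −0.95, −0.78, −0.46 and −0.99 by total counts and of −0.64, −0.44, −0.15 and −0.42 by TPM.

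**Figure D2:**
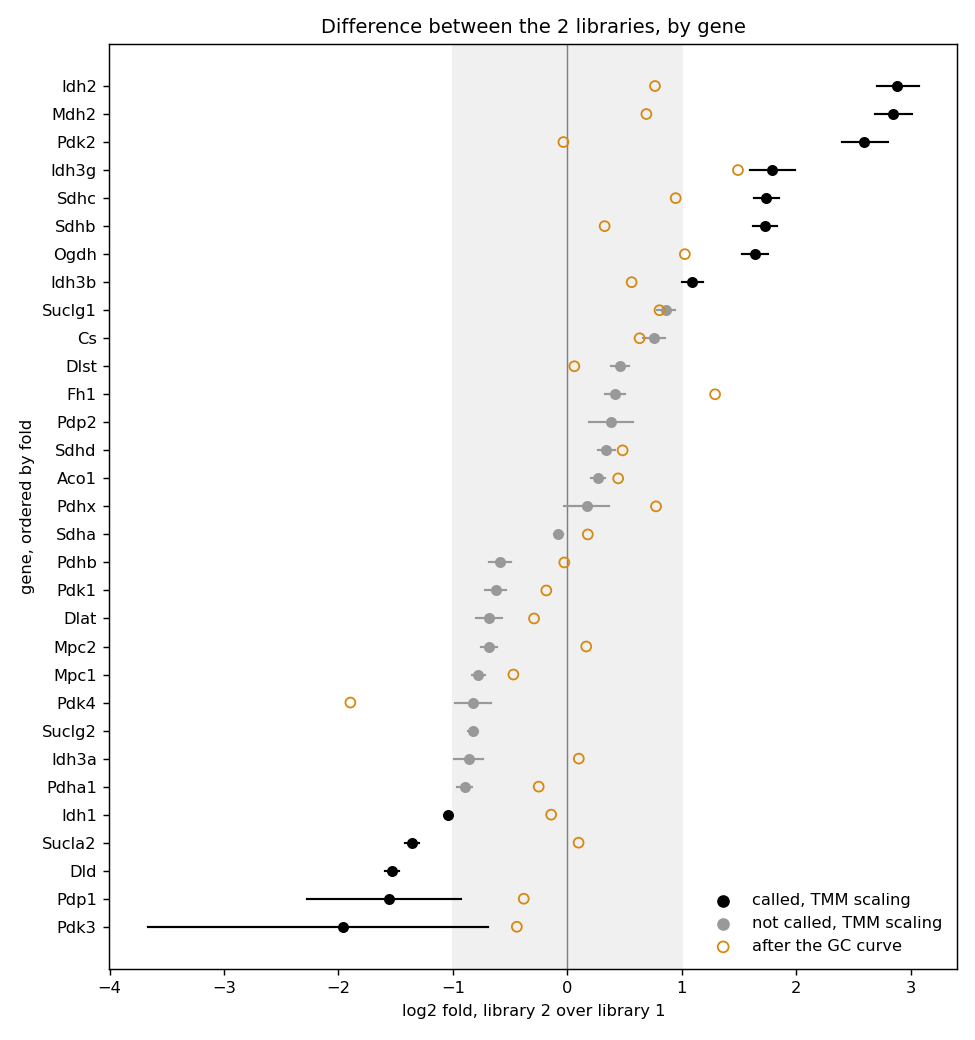
Log2 fold of library 2 over library 1 for each gene under TMM scaling, as points with exact 95% binomial intervals (black where called, grey where not), and as open circles after subtraction of the curve on GC content. The shaded band spans log2 folds under 1 in size; Idh2, Mdh2 and Pdk2 lie farthest right and Pdk3 and Pdp1 farthest left, while most open circles lie inside the band, and Dld, Pdp2 and Suclg2 have no open circle.

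The fold followed the base composition of the transcripts. Mean GC content over a gene's annotated transcripts ran between 51.0% and 57.05% (median 53.2%) for the 8 genes that were higher in library 2, and between 40.6% and 45.3% (median 41.2%) for the 5 that were lower, so these ranges did not overlap. The 18 genes that were not called lay between 44.9% and 53.2% (median 48.1%). Across the 31 genes the Spearman correlation of fold with GC content was 0.854 (Pearson 0.875), and across 12694 tested genes with a GC value it was 0.868. These are descriptions across genes that share the same 2 libraries, and genes are not independent replicates. Whether base composition set the differences was not tested.

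Single coding exons of genes at both ends are shown as examples, and an exon need not match its gene's mean GC content. For the 3 highest called folds and 2 of the 3 lowest among genes with at least 100 summed counts, the wholly coding internal exon nearest 120 bases in length was taken from the leading protein-coding transcript, as an example of the sequence behind the counts. Sequences are GENCODE M21 transcripts, written 5′ to 3′ on the gene's strand, with G and C in capitals, and coordinates are those of mm10 (GRCm38). Sucla2 exon 9 lies at chr14:73592632-73592752 on the plus strand (40.5% GC) and Idh1 exon 4 at chr1:65168499-65168604 on the minus strand (41.5%). Pdk2 exon 10 lies at chr11:95027865-95027978 on the minus strand (54.4%), Mdh2 exon 5 at chr5:135786233-135786358 on the plus strand (49.2%), and Idh2 exon 8 at chr7:80096023-80096135 on the minus strand (57.5%). Sucla2 and Idh1 were lower in library 2, and Pdk2, Mdh2 and Idh2 were higher. The Mdh2 exon, at 49.2%, was below the lowest mean GC content of the genes called higher (51.0%).
Sucla2 exon 9: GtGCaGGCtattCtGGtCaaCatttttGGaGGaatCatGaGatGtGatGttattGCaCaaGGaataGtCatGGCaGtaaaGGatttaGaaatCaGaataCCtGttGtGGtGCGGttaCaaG
Idh1 exon 4: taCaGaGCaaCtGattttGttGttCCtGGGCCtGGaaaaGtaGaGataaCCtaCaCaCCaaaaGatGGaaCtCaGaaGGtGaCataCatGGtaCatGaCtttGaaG
Pdk2 exon 10: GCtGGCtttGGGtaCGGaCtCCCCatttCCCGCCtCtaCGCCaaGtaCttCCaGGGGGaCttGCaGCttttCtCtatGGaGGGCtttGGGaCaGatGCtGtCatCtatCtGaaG
Mdh2 exon 5: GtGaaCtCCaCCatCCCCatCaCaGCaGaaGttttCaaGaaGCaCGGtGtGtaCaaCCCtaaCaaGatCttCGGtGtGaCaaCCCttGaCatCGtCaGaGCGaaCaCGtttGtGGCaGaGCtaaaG
Idh2 exon 8: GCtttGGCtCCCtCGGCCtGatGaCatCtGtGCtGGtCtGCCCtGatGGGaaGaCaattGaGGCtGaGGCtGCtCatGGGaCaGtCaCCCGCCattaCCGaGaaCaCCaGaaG

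**Figure D3:**
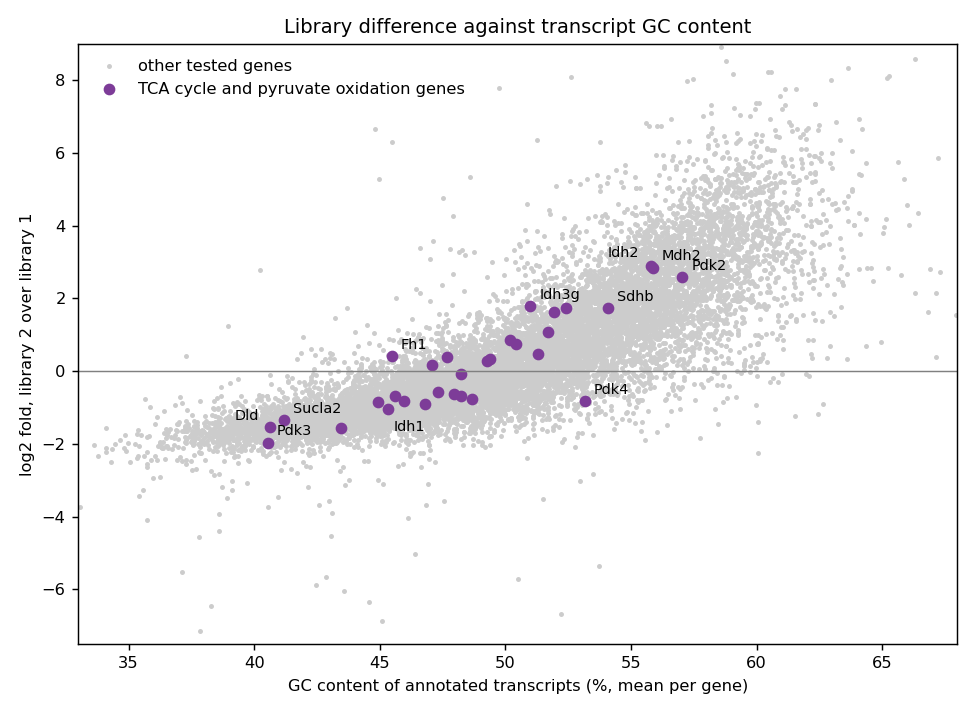
Log2 fold of library 2 over library 1 against the mean GC content of each gene's annotated transcripts, with the 31 genes in purple and the other tested genes in grey (18 of 12694 genes fall outside the plotted range). The 31 genes run along the grey cloud, from Dld, Pdk3 and Sucla2 at low GC content to Idh2, Mdh2 and Pdk2 at high GC content, with Pdk4 below it and Fh1 and Idh3g toward its upper edge.

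Far fewer genes stood apart once this relation was taken out. After the folds were taken as distances from a loess curve fitted against GC content, 4 of the 28 genes with a GC value were called (14.3%), and 20.1% of all tested genes were. The 3 higher in library 2 were Idh3g (log2 fold 1.49), Fh1 (1.29) and Ogdh (1.03), against a background of 9.68%, and the 1 lower was Pdk4 (−1.90), against 10.4%. The median log2 fold was then 0.17 for the 28 genes and −0.0032 for all tested genes, and the median size 0.44 and 0.47. Dld, Pdp2 and Suclg2 have no value here because their transcripts differ in length by over 10% between the annotation used for GC content and the deposited tables. Without that condition, which was dropped after the data were seen, they came to −0.022, 0.87 and −0.032 and were not called. The calls of Fh1, Ogdh and Pdk4 rest on how GC content is averaged. With GC content weighted by TPM or taken from the longest coding transcript, the log2 fold was 0.94 or 0.82 for Fh1 and 0.73 or 0.78 for Ogdh, and neither was called. For Pdk4, the leading transcript Pdk4-201 held 100% of the gene's TPM in both libraries and has 44.9% GC, while the mean with the second transcript, listed at 0, is 53.2%. With GC content weighted by TPM the log2 fold of Pdk4 was 0.10 and it was not called. Idh3g was called under all 5 versions of the curve, at log2 folds between 1.09 and 1.49.

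The pyruvate carriers were the highest of these genes in either library. Mpc1 (ENSMUSG00000023861.13, chr17:8282904-8297661, plus strand) had 4395 counts and 407 TPM in library 2, against 6028 counts and 358 TPM in library 1. Mpc2 (chr1:165460637-165481214, plus strand) had 3096 counts and 298 TPM in library 2, against 3979 counts and 430.5 TPM in library 1. Their log2 folds by counts were −0.78 (95% interval −0.84 to −0.72) and −0.68 (−0.75 to −0.62), and neither was called. The order of the pair was reversed: Mpc1 was 1.37 times Mpc2 in library 2, whereas Mpc2 was 1.203 times Mpc1 in library 1.

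Both carriers also led with different transcripts in the 2 libraries. The isoform percent, the deposited share of a gene's TPM, was 81.2% in library 2 and 22.9% in library 1 for Mpc1-208. For Mpc1-201 it was 0% in library 2, where the authors' interval reaches 4.57 TPM, and 74.4% in library 1. Both transcripts are annotated as protein-coding and share 916 bases, and only 42 bases belong to Mpc1-208 alone and 4 to Mpc1-201 alone. The 4 bases are a short exon 2 read from different positions of the plus strand of chromosome 17, chr17:8293415-8293418 in Mpc1-208 and chr17:8296527-8296530 in Mpc1-201. The exon is shown in capitals with 12 bases of each neighbouring exon, because so little sequence tells the isoforms apart.
Mpc1-208: ctatctcatgagTACGcacttctggggc
Mpc1-201: ctatctcatgagTACTcacttctggggc
The single difference is G4T, counted from 1 at the first capital base, with the base of Mpc1-208 first. Beyond it, Mpc1-208 begins 34 bases further 5′ and ends 4 bases further 3′. Of the 25-base words of Mpc1, 52.7% also occur in another annotated gene, chiefly the processed pseudogene Mpc1-ps, which was listed at 120 TPM in library 2 and 62.3 TPM in library 1. The division of reads among these copies is therefore uncertain.

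For Mpc2 the full-length protein-coding transcript Mpc2-201 held 63.6% in library 2 and 13.5% in library 1. Mpc2-203, a short transcript annotated as processed and not coding, held 35.3% in library 2 and 85.6% in library 1. In TPM, Mpc2-201 stood at 189 in library 2 and 58.1 in library 1, while Mpc2-203 stood at 105 and 369. Mpc2-203 lacks exons 1 and 2 of Mpc2-201. The 516 bases of Mpc2-201 that precede the shared sequence have 65.3% GC, while the 414 bases that both share have 40.3%.

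Within the pyruvate dehydrogenase complex, 1 of 5 subunits was called, and the summed level was 289 TPM in library 2 and 309 in library 1. Dld (chr12:31331277-31351453, minus strand), the E3 subunit that reoxidises lipoamide and is shared with the 2-oxoglutarate dehydrogenase complex, was the highest in both libraries. It had 2726 counts and 86.0 TPM in library 2, against 6305 counts and 134 TPM in library 1, which is 2.89-fold lower by scaled counts (log2 fold −1.53, interval −1.60 to −1.47). The E1 subunits Pdha1 and Pdhb, which together decarboxylate pyruvate, were close in level, with Pdhb at 1.07 times Pdha1 in library 2 and 0.865 times in library 1. Pdha1 (on the X chromosome) stood at 75.2 TPM in library 2 and 75.35 in library 1 (3058 and 4554 counts), and Pdhb at 80.5 and 65.2 TPM (1611 and 1934 counts). Their log2 folds by counts were −0.90 and −0.59, so by counts both lay below 0 while the TPM of Pdhb was higher in library 2. Pdhb shares 46.5% of its 25-base words with a pseudogene, which was listed at 0.08 TPM in library 2 and 0.05 in library 1.

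The acetyltransferase core of the complex was lower in level than its E1 and E3 partners. Dlat, the E2 acetyltransferase, stood at 32.05 TPM in library 2 and 27.2 in library 1 (1082 and 1389 counts, log2 fold −0.68). Pdhx, the component that anchors E3 to this core, was the lowest subunit, at 15.6 TPM (515 counts) in library 2 and 6.92 TPM (366 counts) in library 1. Its log2 fold of 0.17 (interval −0.03 to 0.37) was within counting error, with an adjusted p of 0.104 in the exact binomial test with Benjamini-Hochberg adjustment. The coding share of Dlat was alike in both libraries, with Dlat-201 at 49.4% in library 2 and 50.6% in library 1. The non-coding part was made up differently: Dlat-202 held 40.7% in library 2 and 1.46% in library 1, and the retained-intron transcript Dlat-203 held 6.26% and 47.4%. The last of these lacks 9 of the 14 exons of Dlat-201, and the 1589 bases it lacks at the 5′ end have 59.2% GC. Dlat-202, with the larger share in library 2, also lacks a 5′ stretch of Dlat-201, of 1428 bases with 59.5% GC.

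The 4 pyruvate dehydrogenase kinases changed order between the libraries. Pdk2 (chr11:95026258-95041354, minus strand), a widely expressed isoform that is abundant in liver, had 1697 counts and 54.4 TPM in library 2, against 224 counts and 4.76 TPM in library 1. It was 6.05-fold higher in library 2 by scaled counts (log2 fold 2.60, interval 2.40 to 2.81), and stood at rank 1522 in library 2 and 5089 in library 1 among nuclear protein-coding genes. Pdk1, the isoform known as a target of hypoxia signalling, stood at 31.03 TPM in library 2 and 39.3 in library 1 (1709 and 2111 counts, log2 fold −0.63). Pdk4, which is known to be induced by fasting, stood at 11.3 TPM in library 2 and 10.8 in library 1 (573 and 810 counts, log2 fold −0.82). Neither Pdk1 nor Pdk4 was called. Pdk3 was near the limit of detection with 6 counts (0.20 TPM) in library 2 and 20 counts (0.51 TPM) in library 1. Its log2 fold was −1.96 with a wide interval of −3.67 to −0.69 (adjusted p = 0.00152, exact binomial test with Benjamini-Hochberg adjustment). Pdk2 thus was 1.75 times Pdk1 in library 2, and Pdk1 was 8.25 times Pdk2 in library 1.

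Pdk1 was also led by different transcripts. Protein-coding Pdk1-201 held 53.5% of its TPM in library 2 and 37.1% in library 1, and Pdk1-206, annotated as processed and not coding, 16.5% and 52.8%. The 342 bases that Pdk1-206 lacks at the 5′ end have 74.0% GC.

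Of the phosphatases, Pdp2 was higher in level than Pdp1 in both libraries. Pdp2, the insulin-responsive form, had 592 counts and 11.6 TPM in library 2, against 363 counts and 4.82 TPM in library 1 (log2 fold 0.38, interval 0.19 to 0.58). Pdp1, the calcium-sensitive form known best from muscle, had 28 counts and 0.72 TPM in library 2, against 67 counts and 1.00 TPM in library 1, and was 2.95-fold lower in library 2 (log2 fold −1.56, interval −2.27 to −0.93).

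**Figure D4:**
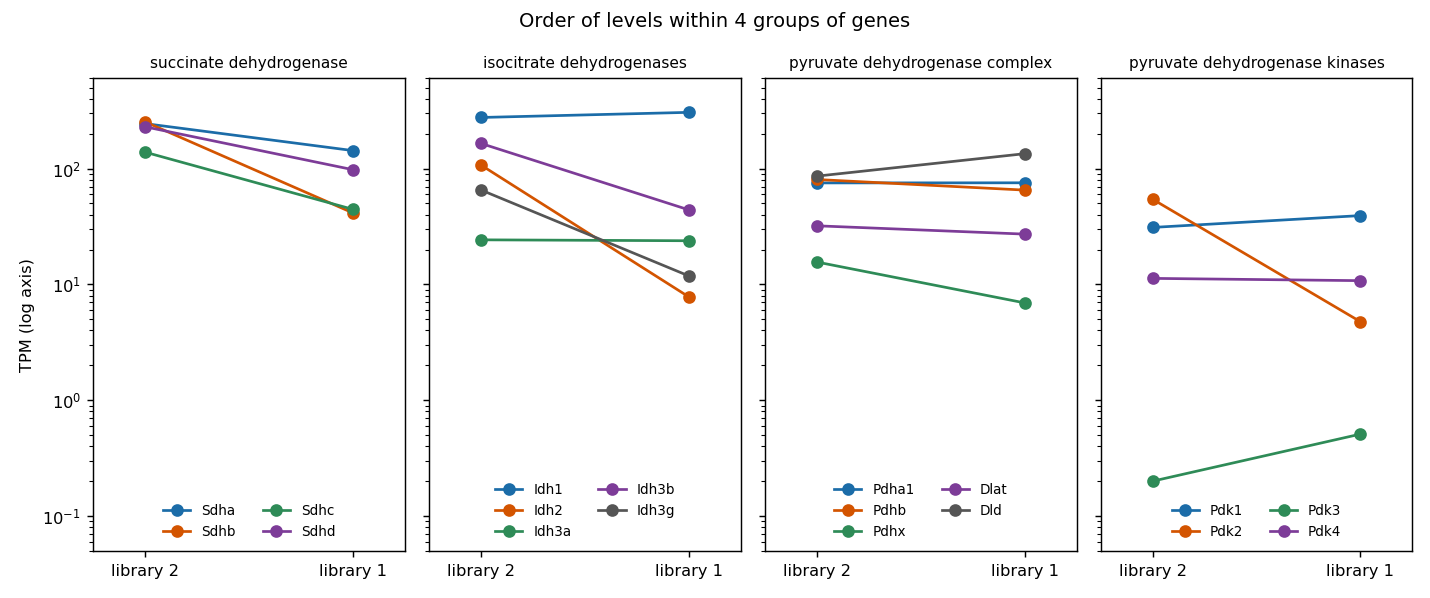
TPM on a log axis of the members of 4 groups of genes, with library 2 on the left and library 1 on the right of each panel and a line per gene. Lines cross where the order differs, as for Sdhb among the succinate dehydrogenase subunits, Idh2 and Idh3g among the isocitrate dehydrogenases, and Pdk2 among the kinases.

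Citrate synthase, Cs (chr10:128337734-128362479, plus strand), which carries out the entry step of the cycle, had 2744 counts and 67.35 TPM in library 2, against 1295 counts and 21.5 TPM in library 1. Its log2 fold was 0.76 (interval 0.66 to 0.86), under the size needed for a call. Aco1, the cytosolic aconitase that doubles as iron regulatory protein when it lacks its iron-sulfur cluster, had 5209 counts and 93.35 TPM in library 2, against 3460 counts and 41.9 TPM in library 1 (log2 fold 0.27). Aco1 was above Cs in both libraries.

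Among the isocitrate dehydrogenases 3 genes were higher in library 2, 1 was lower and 1 was not called. Idh1 (chr1:65158616-65186500, minus strand), the cytosolic and peroxisomal NADP-dependent enzyme, was the highest of the 5 in both libraries. It had 8934 counts and 276 TPM in library 2, against 14706 counts and 306 TPM in library 1, and was 2.06-fold lower by scaled counts (log2 fold −1.04, interval −1.08 to −1.004). Idh2 (chr7:80094846-80115392, minus strand), the mitochondrial NADP-dependent enzyme, had 2496 counts and 107 TPM in library 2, against 270 counts and 7.78 TPM in library 1. Its 7.38-fold difference (log2 fold 2.88, interval 2.70 to 3.07) was the largest of the 31 genes under TMM scaling, and it ranked 902 in library 2 and 3914 in library 1. The ratio of Idh1 to Idh2 in TPM was 2.58 in library 2 and 39.3 in library 1.

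The NAD-dependent enzyme of the cycle is built of the catalytic subunit Idh3a with Idh3b and Idh3g, and its subunits fell into different classes. Idh3a stood at 24.25 TPM in library 2 and 23.8 in library 1 (829 and 1205 counts, log2 fold −0.86). Idh3b stood at 165 TPM in library 2 and 43.9 in library 1 (3519 and 1321 counts, log2 fold 1.09, interval 0.999 to 1.18). Idh3g, on the X chromosome, stood at 65.2 TPM in library 2 and 11.8 in library 1 (1127 and 261 counts, log2 fold 1.79, interval 1.59 to 1.99). Idh3g was therefore 2.69 times Idh3a in library 2 and 0.496 times Idh3a in library 1. Its leading protein-coding transcript Idh3g-201 held 84.3% in library 2 and 53.3% in library 1, and the retained-intron transcript Idh3g-202 held 0.03% and 21.7%. The 582 bases that Idh3g-202 lacks at the 5′ end have 53.8% GC.

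The 2-oxoglutarate dehydrogenase complex, which releases carbon dioxide and forms succinyl-CoA, had a subunit in each class. Ogdh, the E1 decarboxylase (chr11:6291633-6356642, plus strand), had 3124 counts and 52.3 TPM in library 2, against 801 counts and 9.75 TPM in library 1, 3.12-fold higher by scaled counts (log2 fold 1.64, interval 1.53 to 1.75). Dlst, the E2 succinyltransferase, stood at 92.1 TPM in library 2 and 36.2 in library 1 (3664 and 2131 counts, log2 fold 0.46, not called), and the shared Dld was lower, as given above. Dlst was 1.07 times Dld in library 2, and Dld was 3.71 times Dlst in library 1. Under TMM scaling the E1 and E3 subunits of the same complex thus lay on opposite sides of 0.

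Of the subunits of succinyl-CoA ligase, which makes a nucleoside triphosphate from succinyl-CoA, the shared alpha subunit Suclg1 had a positive log2 fold and both beta subunits a negative one. Sucla2 (chr14:73525319-73596142, plus strand), the ADP-forming beta subunit, had 3006 counts and 119 TPM in library 2, against 6154 counts and 161 TPM in library 1, and was 2.56-fold lower by scaled counts (log2 fold −1.36, interval −1.42 to −1.29). Suclg1 had 4276 counts and 209 TPM in library 2, against 1884 counts and 61.8 TPM in library 1 (log2 fold 0.86, not called). Suclg2, the GDP-forming beta subunit, was the highest of the 3 in both libraries at 212 TPM in library 2 and 202 in library 1, with 6828 and 9664 counts (log2 fold −0.82, not called), and 38.6% of its 25-base words occur in a pseudogene. Suclg2 was 1.78 times Sucla2 in library 2 and 1.26 times Sucla2 in library 1, so the GDP-forming subunit was the more abundant in both. Sucla2 had nearly equal transcripts, with Sucla2-201 at 54.0% in library 2 and 48.5% in library 1 and Sucla2-203 at 43.9% and 49.3%.

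Succinate dehydrogenase, which is also complex II of the respiratory chain, had the largest summed level of any role group in library 2, at 864 TPM, against 326 TPM in library 1. Sdha, the flavoprotein subunit, differed least of the 31 genes by scaled counts, with 10026 counts and 244 TPM in library 2, against 8461 counts and 143 TPM in library 1 (log2 fold −0.08, interval −0.12 to −0.04). Its sign depends on scaling, as the log2 fold was 0.50 with total-count scaling and 0.77 as a ratio of TPM. Sdhb (chr4:140961203-140979193, plus strand), the iron-sulfur subunit, had 3714 counts and 252 TPM in library 2, against 897 counts and 41.2 TPM in library 1, 3.31-fold higher by scaled counts (log2 fold 1.73, interval 1.62 to 1.83). Of the membrane anchors, Sdhc stood at 138 TPM in library 2 and 44.4 in library 1 (3542 and 848 counts, log2 fold 1.74, interval 1.63 to 1.85) and was called, while Sdhd stood at 229 and 97.6 TPM (3888 and 2457 counts, log2 fold 0.34) and was not. Sdhb was 1.03 times Sdha in library 2, where it led the complex, and 0.289 times Sdha in library 1, where it was the lowest of the 4.

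Fumarase and malate dehydrogenase, the last steps before oxaloacetate, held a large difference in 1 gene and opposite signs by counts and by TPM in the other. Mdh2 (chr5:135778480-135790398, plus strand), the mitochondrial malate dehydrogenase, had 3063 counts and 169 TPM in library 2, against 340 counts and 15.2 TPM in library 1. It was 7.19-fold higher in library 2 (log2 fold 2.85, interval 2.69 to 3.01). Fh1, the fumarase gene, had 2832 counts in library 2 and 1694 in library 1, a log2 fold of 0.42 (interval 0.33 to 0.51), but its TPM was 108 in library 2 and 123 in library 1. The deposited length of Fh1, an average over its transcripts, was 1888 bases in library 2 and 785 in library 1, and TPM divides by it.

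The lengths of Fh1 follow its transcripts. Full-length Fh1-201 held 64.0% of its TPM in library 2 and 10.5% in library 1. The short Fh1-205, of 542 bases and also annotated as coding, held 32.7% in library 2 and 54.1% in library 1. The 880 bases that Fh1-205 lacks at the 5′ end have 51.0% GC. Fh1-204, annotated as a target of nonsense-mediated decay, a pathway that degrades transcripts with a premature stop, held 0% in library 2, where the authors' interval reaches 2.65 TPM, and 30.9% in library 1. Fh1 lies across from Kmo on the opposite strand, a gene with 7047 counts in library 2 against 8503 in library 1. The sources used here do not say whether the counts were made by strand, so reads from the overlap cannot be assigned with certainty. The same holds for Idh3b and Pdhx, which Nop56 and Apip overlap on the opposite strand.

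Mdh2 was led by its coding transcript Mdh2-201 in library 2, at 74.1% against 15.7% in library 1. In library 1 the leader was Mdh2-203, annotated as a target of nonsense-mediated decay, at 24.9% in library 2 and 84.3% in library 1. Mdh2-201 alone stood at 125 TPM (2451 counts) in library 2 and 2.39 TPM (69.3 counts) in library 1, with the authors' intervals of 111 to 126 and 1.39 to 3.23 TPM. Mdh2-203 lacks 182 bases at the 5′ end (63.7% GC) and exon 2, which lies at chr5:135783305-135783473 on the plus strand, is wholly coding and has 54.4% GC. This exon is shown because it separates the coding transcript from the other leader, with G and C again in capitals.
Mdh2 exon 2: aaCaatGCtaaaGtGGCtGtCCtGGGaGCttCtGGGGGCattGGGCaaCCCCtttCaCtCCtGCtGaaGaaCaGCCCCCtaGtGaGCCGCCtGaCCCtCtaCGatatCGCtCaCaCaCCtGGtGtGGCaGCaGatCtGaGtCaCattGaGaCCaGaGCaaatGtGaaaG

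In all, the leading transcript differed between the libraries in 7 of 21 genes with at least 2 transcripts and a TPM of at least 1 in both libraries (33.3%). The share over all such nuclear protein-coding genes was 30.3%, so the 7 are close to the background. The 7 were Mpc1, Mdh2, Fh1, Mpc2, Sdhc, Pdk1 and Sucla2. Sdhc was split between Sdhc-201 (49.6% in library 2, 31.5% in library 1), Sdhc-202 (45.0% and 19.4%) and the 298-base Sdhc-203 (5.45% and 49.05%). By share of expected counts in place of TPM, the leader differed in 3 genes, Mdh2, Mpc1 and Mpc2. The genes led by a transcript that is not annotated as protein-coding numbered 0 in library 2 and 3 in library 1 (Mdh2, Mpc2 and Pdk1). For leaders by expected counts and for non-coding leaders the share over all such genes is not given here. Neither count is therefore read as a trait of these genes. Summed over protein-coding transcripts alone, the 31 genes held 3480 TPM in library 2 and 2046 in library 1.

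**Figure D5:**
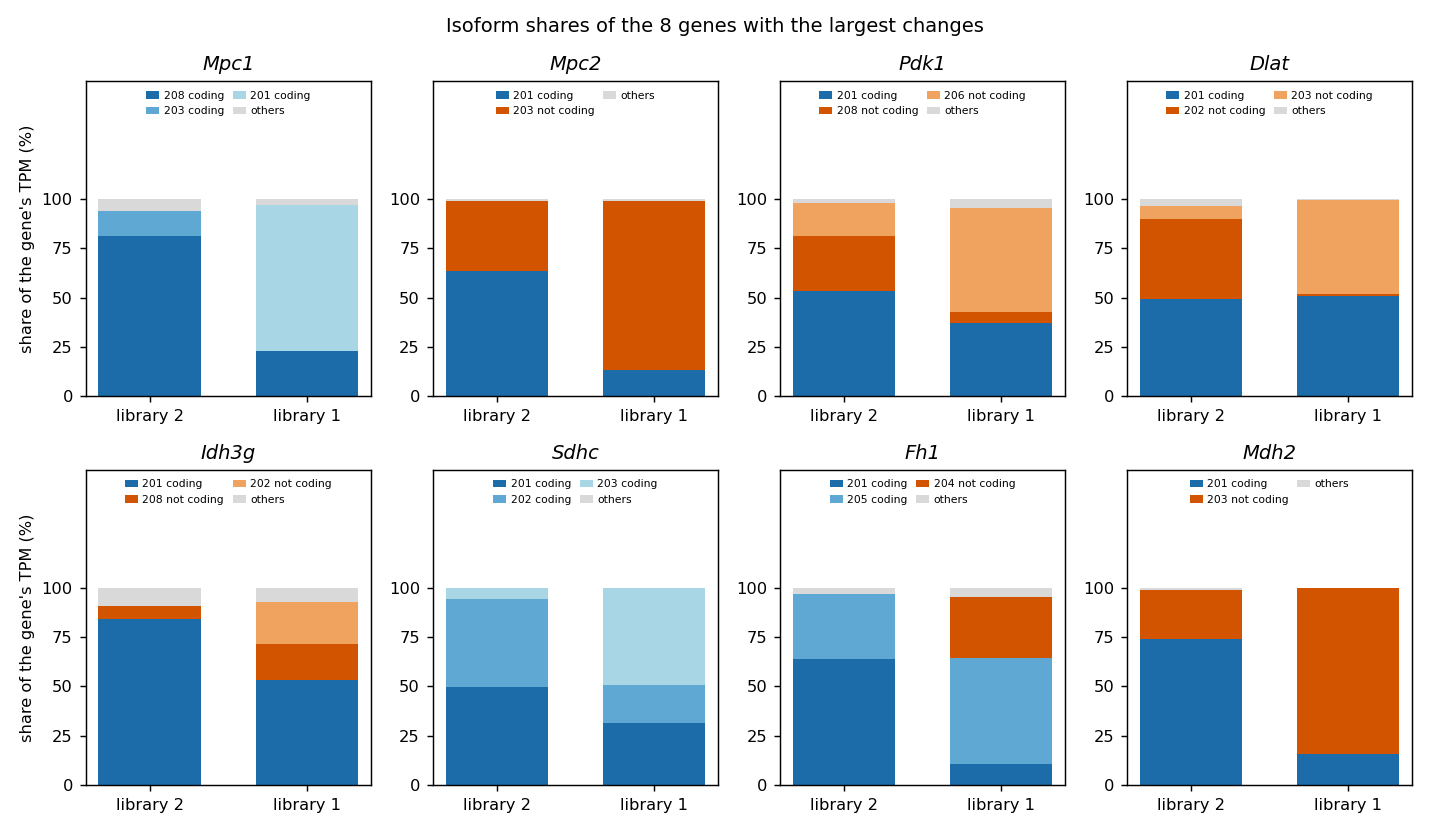
Stacked shares of each gene's TPM held by its transcripts, in percent, for the 8 genes with the largest changes, with library 2 on the left and library 1 on the right; blue marks protein-coding and orange other transcripts with at least 10% in a library, and grey the rest. Mdh2, Mpc2 and Pdk1 are mostly orange in library 1 and mostly blue in library 2, and Mpc1 passes between 2 coding transcripts.

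Within role groups, 13 of 42 pairs of genes had opposite TPM orders in the 2 libraries, among them Sdhb with Sdha and Idh2 with Idh3a. Some of these were near ties in a library, as Sdhb was 1.03 times Sdha in library 2. The share of reversed pairs among other genes was not computed. Among the orders that held in both libraries were Idh1 first among isocitrate dehydrogenases, and Dld first and Dlat and Pdhx last in the pyruvate dehydrogenase complex. Others were Pdk3 last among the kinases, Pdp2 above Pdp1, Aco1 above Cs, Suclg2 first in the ligase, Dlst above Ogdh, and Sdha above Sdhd above Sdhc. With 1 library on each side these orders have no check on biological replicates.

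A list of 37 related genes covers malate shuttles, anaplerosis, lactate dehydrogenases, mitochondrial carriers, cofactor and complex II assembly, and testis forms. Of 33 tested, 15 were called higher in library 2, 2 lower and 16 not called, with a median log2 fold of 0.61; over all tested genes 32.7% were called higher and 23.8% lower, with a median of 0.042. After the GC curve 8 were higher and 3 lower, with a median of 0.21, while over all tested genes 9.68% were higher and 10.4% lower, with a median of −0.0032. The largest difference was that of Slc25a10, the dicarboxylate carrier, with 3415 counts and 126 TPM in library 2, against 59 counts and 2.13 TPM in library 1 (log2 fold 5.52, interval 5.16 to 5.93). Pcx, pyruvate carboxylase, which sends pyruvate to oxaloacetate in gluconeogenesis, had 8571 counts and 140.5 TPM in library 2, against 331 counts and 3.68 TPM in library 1 (log2 fold 4.37, interval 4.21 to 4.53). The 2 lower genes were Sdhaf3, a complex II assembly factor (141 and 316 counts, log2 fold −1.48), and Slc25a21, the oxodicarboxylate carrier (219 and 414 counts, log2 fold −1.24). Ogdhl and the testis form Pdha2, named after their values were seen, had 0 counts in both libraries, which allows up to 3 counts in each.

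The tissue label was checked against marker genes of liver and other cells. Hepatocyte markers summed to 82302 TPM in library 2 and 36489 in library 1, with 7 of 7 matched genes at 1 TPM or more in each. Kupffer cell markers summed to 153 and 67.1 TPM, endothelial markers to 91.8 and 26.3, stellate cell markers to 145 and 159, bile duct markers to 5.18 and 1.96, and blood markers to 2052 and 137. Skeletal muscle, heart and adipose lists each summed to at most 1.16 TPM, with Myh4, Myh6, Nppa and Cidea at 0 counts in both libraries, and the pancreas list to 8.28 and 0.86 TPM with Prss2 and Cpa1 at 0. The summed levels of blood and of other marker lists differed between the libraries, but members of a list did not all move together. In the blood list, Hba-a1 had 2771 counts in library 2 and 8 in library 1, and Ptprc 212 and 363. In the Kupffer cell list, Clec4f stood at 59.55 TPM in library 2 and 7.82 in library 1, and Vsig4 at 28.58 and 38.17. The part of these lists in the differences of the 31 genes was not tested. In bulk RNA, fewer cells of a type and less RNA per cell cannot be told apart.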

How the data were processed

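PolyA RNA of 1 liver was measured in 2 technical libraries; the values were deposited by the authors on mm10 with annotation M4, per the file headers, and for the quantification tool, aligner and strand setting the record is: not given in the sources used here. The deposited expected counts are estimated, unnormalised counts per gene or transcript, whole for 28 of the 31 genes in each library. The deposited TPM and FPKM values are normalised for length and depth, and isoform shares are in percent of a gene's TPM, per the file headers. The authors' TPM interval bounds and the standard deviations of counts are deposited as signal-like values in TPM and counts.

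Symbols, biotypes and sequences came from GENCODE M21 (122 of 130 transcripts have the same length there). The 26345 entries that are not Ensembl genes held 0 counts. After rounding, genes reaching 20 expected counts over both libraries were kept and scaled with TMM in edgeR 4.0.16 (R 4.3.3; factors 1.22 for library 2 and 0.818 for library 1). Because 1 library on each side leaves edgeR no residual degrees of freedom, genes were tested by two-sided exact binomial tests, adjusted after Benjamini and Hochberg across all of them. Log2 folds used a prior count of 0.5, and intervals are exact binomial at 95%, covering counting error only. A loess curve (span 0.3) of log2 fold on GC content was fitted on nuclear genes. The scaling and the test were run on simulated counts with few changed genes and no trend with GC content. That setting is unlike these data, so it does not show how they perform here. DESeq2 1.42.0 size factors, total counts, TPM ratios, other filters, thresholds and GC measures were tried.

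The members and lists were chosen with earlier results of these data known. Every member may be named; related genes were named by the largest called folds, and isoforms by a different or non-coding leader or a large change of share. Some items are not reported here.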

Additional observations from a re-analysis of the deposited data

How the results depend on the processing

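The count of 13 called genes stood between 11 and 16 under total-count scaling (12, of which 11 higher), DESeq2 size factors, TMM on nuclear genes, the ratio of deposited TPM (16, of which 15 higher and 1 lower), no filter, a summed count of at least 200, and a prior count of 5. It moved to 30 with the adjusted p alone and to 24 with a log2 fold of at least 0.58. Over all genes, 4112 of 12728 were called higher and 3112 lower with DESeq2 size factors, and 4149 of 12704 and 3032 with TMM on nuclear genes. Those for total counts and the TPM ratio are given above. For the changed filters, prior count and thresholds the share over all genes is not given here. The main rule already called 56.5% of them, so 30 or 24 of 31 is not read as a trait of these genes. The ratio of TPM leaves in the change in the share of mitochondrial transcripts, and its median log2 value over all tested genes was 0.84. Of 277 single-gene folds under these alternatives, 222 kept their direction and side of the threshold and 9 changed sign. The changed filters and thresholds left the folds as they were, so no sign could change there. Of the 9 changes of sign, 8 came with the ratio of TPM and 1 with total counts. Sdha came to 0.50 with total counts, and as a ratio of TPM Sdha came to 0.77, Pdhb to 0.30, Dlat to 0.24, Mpc1 to 0.19, Pdk4 to 0.065, Suclg2 to 0.065, Idh3a to 0.026 and Fh1 to −0.19. After the GC curve, 2 of 28 genes (Idh3g and Pdk3) were called with GC content weighted by TPM. Under each other version 4 were called, of 28 genes or, without the length condition, of 31. They were not the same 4: with the longest coding transcript they were Idh3g, Sdhc, Mpc2 and Pdk3. Of all tested genes with a GC value, 14.4% were called with GC content weighted by TPM and 15.5% with the longest coding transcript. The share was 20.3% with a loess span of 0.7 and 20.1% without the length condition. The leading transcript differed in 3 genes by share of expected counts, in place of 7, and the share over all genes by that measure is not given here. The number of genes with a TPM of at least 1 was 29 in both libraries and ranged between 29 and 30 when 1 library was left out. The comparison of libraries cannot leave one out. No paired analysis was possible because the replicate numbers name 2 libraries of the same animal. Depth limits Pdk3 and Pdp1, with at most 67 counts in a library.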

Other observations

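Several of these genes share sequence with other annotated genes. Of the 31, 16 share no 25-base word with another gene, and 5 share over 10% of their words. After Mpc1, these were Pdhb, with 46.5% of its words in the pseudogene Gm6123 (0.08 TPM in library 2 and 0.05 in library 1), Suclg2, with 38.6% in the pseudogene Gm15163 (1.60 and 1.27 TPM), Pdha1, with 22.9% shared, mostly with the overlapping gene Map3k15 on the opposite strand (0.23 and 0.38 TPM), and Cs, with 11.3% shared, mostly with Csl (0 counts in both libraries). An annotated gene overlaps 13 of the 31, and for 4 of them the neighbour reached 1 TPM in a library. Besides Kmo across Fh1, these included Nop56 across Idh3b (315 counts in library 2 and 214 in library 1) and Apip across Pdhx (205 and 203), each on the opposite strand.

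The deposited TPM lay above the authors' own interval for 19 of the 31 genes in library 2 and 7 in library 1, and below it for 0 in each. The ratio of the interval's upper to lower bound had a median of 1.09 in library 2 and 1.13 in library 1, and was widest for Pdk3 at 8.47 and 4.56.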
